A study of Mus musculus with 8 samples.

Results

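The Gbp and Irg families are guanosine triphosphatases (GTPases) that interferons induce, and 9 of their genes were followed here in common lymphoid progenitors of mouse bone marrow, from which B, T and natural killer cells arise. The 9 genes, Gbp2, Gbp3, Gbp6, Gbp7, Gbp8, Igtp, Irgm1, Iigp1 and Ifi47, were taken by gene symbol from 18193 genes measured on 8 arrays and are represented by 13 probe sets. They were picked with earlier results of these arrays known, in which Gbp8 and Gbp2 stood out as lower in cells lacking E2A. All differences of the 9 genes between genotypes, with their intervals, are therefore given as a description. Where the fit over all genes called one of them, that is stated beside the share of all genes called, and nothing is read from it.

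The study measured E2A-KO (n = 4), HEB-KO (n = 2) and WT (n = 2) cells of C57bl/6 mice of 10 to 13 weeks, to learn what the earliest lymphoid progenitors owe to each factor. E2A (encoded by Tcf3) and HEB (encoded by Tcf12) are E proteins, transcription factors that bind DNA as dimers at E-box motifs. Cells were sorted from bone marrow by their lack of lineage markers and of LY6D and by surface FLT3 and CD127 (LIN-FLT3+CD127+LY6D-), and each sort pooled several marrows. Per the labels each genotype had 2 or more separate sorts. No source used here gives the kind of knockout allele. The titles number the arrays of each genotype as biological replicates. Whether the 4 E2A-KO arrays came from separate sorts is not stated in the labels. The errors and p-values below rest on the spread among arrays of pooled cells, which may be technical in part, and not on that among mice.

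Guanylate-binding proteins (GBPs) are large GTPases of the dynamin superfamily that assemble on bacteria and on the vacuoles of parasites inside a host cell. Immunity-related GTPases (IRGs) are smaller partners in the same defence: effectors such as Iigp1 coat and disrupt the vacuole, while the regulators Irgm1 and Igtp (also called Irgm3) sit on host membranes and hold the effectors inactive there. Interferon-gamma induces both families in mice, in part through the factor IRF1, and type I interferon induces many of the same genes. Gbp2, Gbp3 and Gbp7 lie on chromosome 3, Gbp6 and Gbp8 on chromosome 5, and Irgm1, Ifi47 and Igtp on chromosome 11.

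The promoters of the chromosome 3 genes are shown because these genes of a cluster read so differently in the knockouts. That of Irgm1 is shown as an example from the other family. RefSeq promoter windows (build GRCm38.p6, from 250 bases before to 50 bases after the start of the gene) were found for 6 of the 9 genes, with 7 windows in all. Gbp6, Gbp8 and Iigp1, each more than 2-fold lower on average in E2A-KO than in WT cells, had no window here. The matches below therefore say nothing about these genes. Capitals mark matches, on either strand, to the core of the interferon-stimulated response element that IRF factors bind, searched as GAAA, any 2 bases and GAAA again.
Gbp2 (chr3:142620413-142620712, + strand): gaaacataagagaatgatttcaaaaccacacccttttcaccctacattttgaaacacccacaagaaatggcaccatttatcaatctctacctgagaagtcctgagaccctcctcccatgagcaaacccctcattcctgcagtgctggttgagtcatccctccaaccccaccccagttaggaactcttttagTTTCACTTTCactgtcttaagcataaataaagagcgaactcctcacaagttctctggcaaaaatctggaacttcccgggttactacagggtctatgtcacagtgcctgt
Gbp3 (chr3:142559794-142560093, + strand): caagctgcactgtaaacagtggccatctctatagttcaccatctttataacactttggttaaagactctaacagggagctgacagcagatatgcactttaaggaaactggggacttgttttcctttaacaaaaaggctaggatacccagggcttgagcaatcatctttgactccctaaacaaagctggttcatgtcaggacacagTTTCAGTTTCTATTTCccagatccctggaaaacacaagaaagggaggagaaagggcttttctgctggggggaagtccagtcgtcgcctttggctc
Gbp7 (chr3:142530086-142530385, + strand): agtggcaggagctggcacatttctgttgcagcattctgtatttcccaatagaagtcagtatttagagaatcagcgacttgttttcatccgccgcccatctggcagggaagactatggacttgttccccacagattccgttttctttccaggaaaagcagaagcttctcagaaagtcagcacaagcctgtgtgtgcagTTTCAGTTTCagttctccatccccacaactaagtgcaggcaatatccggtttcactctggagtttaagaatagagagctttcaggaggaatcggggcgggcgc
Irgm1 (chr11:48871371-48871670, - strand): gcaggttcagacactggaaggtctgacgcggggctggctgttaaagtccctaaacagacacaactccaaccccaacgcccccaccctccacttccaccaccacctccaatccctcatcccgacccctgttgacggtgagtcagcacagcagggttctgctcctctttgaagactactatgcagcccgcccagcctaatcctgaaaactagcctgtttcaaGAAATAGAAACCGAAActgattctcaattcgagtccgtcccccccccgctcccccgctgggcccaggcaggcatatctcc

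The element occurred in 5 of the 7 windows, in those of Gbp2, Gbp7, Irgm1 and Igtp and in 1 of the 2 windows of Gbp3, against 3.44% of the 32851 windows in the table. In Gbp2 the match began 59 bases before the start, in Gbp7 53 bases before it. Gbp3 and Irgm1 each had a pair of overlapping matches, and Igtp had GAAACTGAAA beginning 34 bases before its start. CAGNTG, an E-box form that E proteins bind, was searched on both strands and found once in the Gbp7 window and once in the second Gbp3 window, against 51.4% of all windows. The gamma-activated sequence, searched as TTCNNNGAA, matched at 2 places in the Gbp7 window and at 1 in the Igtp window. It thus occurred in 2 of the 7 windows, against 8.3% of all windows. No match overlapped a match to another of these motifs, and the Ifi47 window held none of them. These matches are letters in a window and not shown to be bound.

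Each targeted gene was lower in the cells labelled as lacking it, though Tcf12 did not pass the threshold of 0.05. Tcf3 differed by -3.89 (log2, SE 0.22, limma adjusted p = 4.26e-04) between E2A-KO and WT cells, and Tcf12 differed by -2.01 (SE 0.26, limma adjusted p = 0.328) between HEB-KO and WT cells. All 6 progenitor markers (Flt3, Il7r, Kit, Cd93, Dntt and Cd27) lay above the median of every array. Il7r, which encodes the sort marker CD127, fell by 2.15 (SE 0.32, limma adjusted p = 0.0330) and Cd93 fell by 1.34 (SE 0.19, limma adjusted p = 0.0273) in E2A-KO against WT cells. The number of arrays limits precision, with a median SE of a log2 difference of 0.28 for E2A-KO and of 0.323 for HEB-KO against WT. The mean log2 signal of 9 hybridization control probe sets was 11.3 to 12.5 on E2A-KO, 10.1 and 11.4 on HEB-KO, and 11.2 and 10.1 on WT arrays. Ly6d, the marker sorted against, read 6.75, 4.48, 4.26 and 6.88 (log2 intensity) on E2A-KO arrays 1 to 4, 7.52 and 3.63 on HEB-KO arrays and 3.53 and 7.83 on WT arrays.

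In E2A-KO cells the 9 genes formed a pair of sets by size of difference. Gbp8, Iigp1, Gbp2 and Gbp6 averaged between 3.89-fold and 8.81-fold below WT. Ifi47, Irgm1, Gbp3, Igtp and Gbp7 averaged between 1.11-fold and 1.56-fold below WT. All 9 log2 differences were negative, with a median of -0.64, against 54.9% of the 11957 genes tested and a median of -0.05. At least 2-fold lower were 4 of the 9, against 5.08% of all genes, and 6 of the 9 had every E2A-KO array below both WT arrays, against 15.4%. In the fit over all genes 0.443% were called at a limma adjusted p under 0.05, and 1 of the 9, Gbp8, was among them. It was not called without WT array 1 or 2, HEB-KO array 1 or 2, or E2A-KO array 1 or 2, and Iigp1 was called in its place without E2A-KO array 1. Because the genes were chosen with this comparison in view, nothing is read from these shares.

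In HEB-KO cells the 9 genes did not share a direction. Gbp2 and Iigp1 were again lower, with both HEB-KO arrays below both WT arrays; with Gbp7, 3 of the 9 lay apart in that way, against 11.4% of all genes. Gbp3 and Gbp8 had both HEB-KO arrays above both WT arrays, against 23.4% of all genes. Gbp8 and Gbp6 were not lower on average than in WT. The log2 difference was negative for 3 of the 9 (38.2% of all genes), with a median of 0.04 against 0.09 over all genes, and at least 2-fold lower for 2 of them (0.669% of all genes), or for 1 without HEB-KO array 2. Without WT array 1 or HEB-KO array 1 it was negative for 6 of the 9. None of the 9 was called, nor was any other gene, while 312 genes (2.61%) had an unadjusted limma p under 0.05. Both knockouts were set against the same WT arrays, so their differences share the error of those arrays. In bulk RNA fewer cells of a type and less RNA per cell cannot be told apart.

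**Figure D1:**
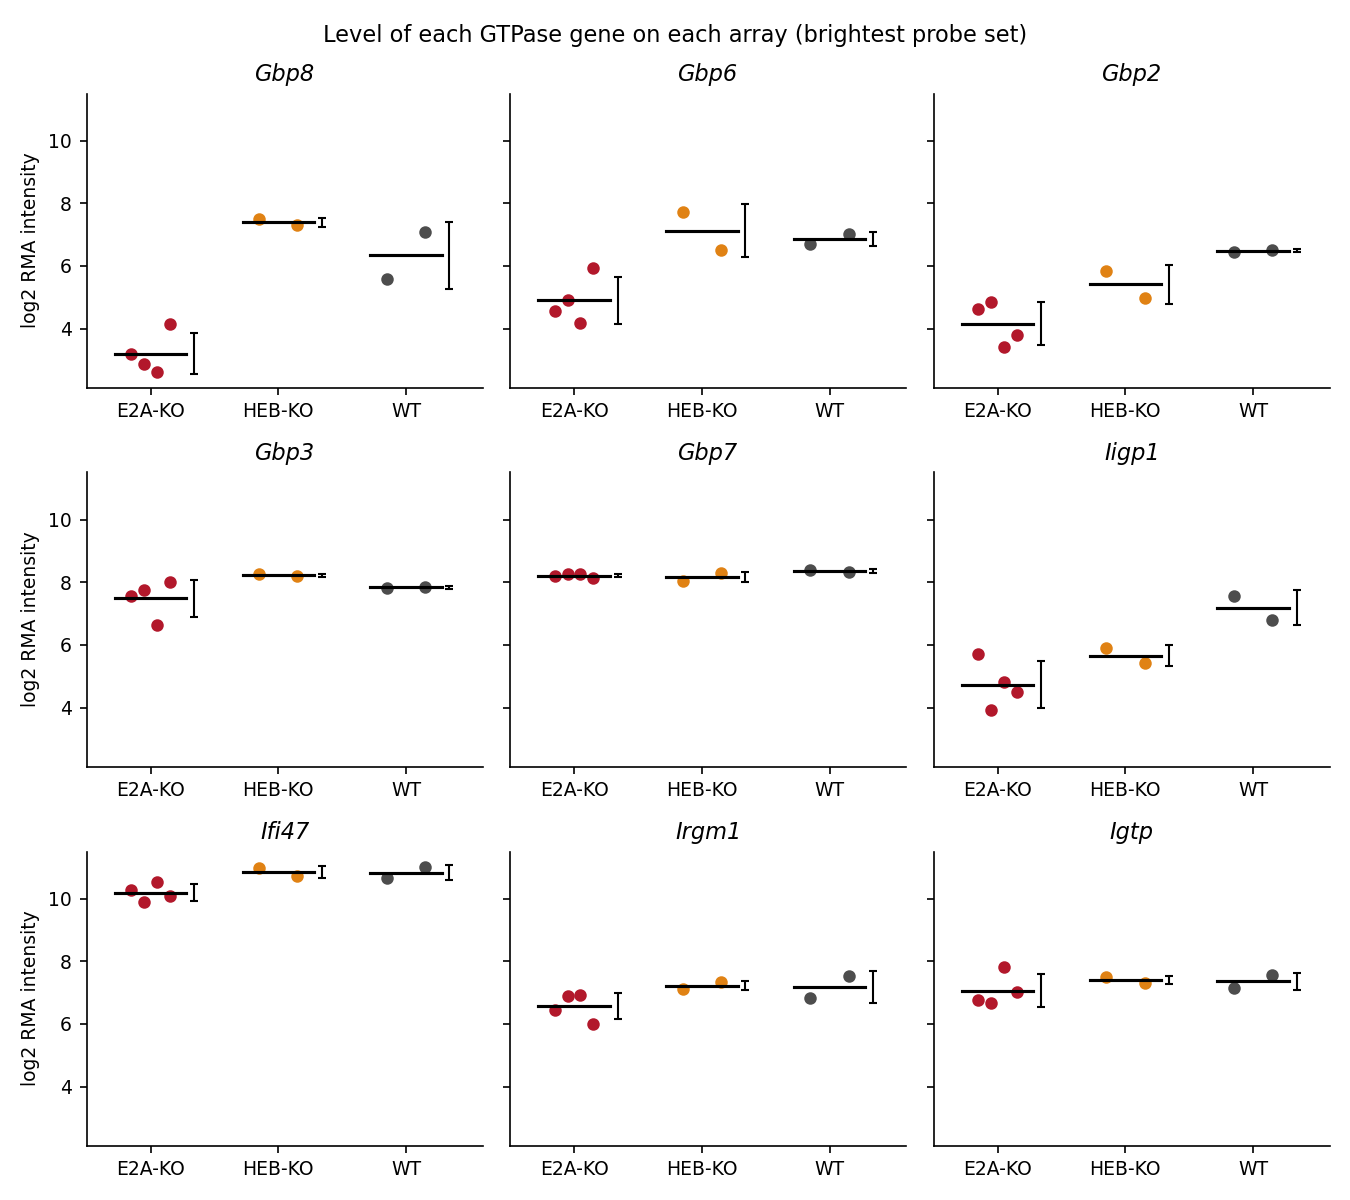
Log2 RMA intensity of each of the 9 genes at its brightest probe set (y axis) on the E2A-KO, HEB-KO and WT arrays (x axis). Points are arrays, horizontal bars are means and error bars are 1 SD; all 4 E2A-KO points of Gbp8 (2.62 to 4.13) lie below the HEB-KO and WT points, while the points of Gbp7 lie between 8.05 and 8.40 in every genotype.

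Gbp8, a guanylate-binding protein of the chromosome 5 group, had the largest difference between E2A-KO and WT cells over all arrays. At probe set 1418776_at it read 3.20, 2.86, 2.62 and 4.13 on the E2A-KO arrays, 7.48 and 7.29 on the HEB-KO arrays, and 5.59 and 7.10 on the WT arrays (log2 intensity). Every E2A-KO array lay below every other array, and 3 of the 4 lay below the median of all probe sets on their array. The WT arrays were far apart, and both HEB-KO arrays lay above both of them. The means were 3.20 ± 0.66 in E2A-KO (SD, n = 4), 7.39 ± 0.13 in HEB-KO (SD, n = 2) and 6.34 ± 1.07 in WT cells (SD, n = 2). The log2 difference was -3.14 (SE 0.49, 95% interval -4.25 to -2.03) for E2A-KO against WT, 1.05 (SE 0.57, -0.24 to 2.33) for HEB-KO against WT, and -4.19 (SE 0.49, -5.30 to -3.07) for E2A-KO against HEB-KO, an 18.2-fold gap.

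The size of these differences depended on the WT array. Against WT array 1 alone, without WT array 2, the E2A-KO difference of Gbp8 was -2.38 and the HEB-KO difference 1.80, and Iigp1, at -2.84 in E2A-KO, then exceeded Gbp8. Against WT array 2 alone, without WT array 1, they were -3.89 and 0.29. Adding 16 to every intensity before the log, which damps values near the floor, gave -1.95 for E2A-KO against WT. Within each genotype, Gbp8 was higher on the arrays with more Ly6d signal: WT array 2, HEB-KO array 1 and E2A-KO arrays 1 and 4. The part of Ly6d-expressing cells in the levels of Gbp8 was not tested, and the genotypes overlapped in Ly6d.

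Gbp6, of the same chromosome 5 group, is another guanylate-binding protein and followed the same order. At the brighter probe set (1447927_at) it read 4.57, 4.91, 4.18 and 5.95 on E2A-KO, 7.72 and 6.52 on HEB-KO, and 6.70 and 7.02 on WT arrays. At the dimmer one (1438676_at) it read 3.87, 3.78, 2.43 and 4.22 on E2A-KO, 7.18 and 6.40 on HEB-KO, and 4.98 and 6.84 on WT arrays. All E2A-KO arrays lay below all others at both probe sets, and HEB-KO and WT arrays overlapped at both. Like Gbp8, the dimmer probe set read higher within each genotype on the arrays with more Ly6d signal. At the brighter one E2A-KO array 2 lay above E2A-KO array 1, which had more Ly6d signal. The part of Ly6d-expressing cells was not tested here either. The differences between E2A-KO and WT were -1.96 (SE 0.49) at the brighter and -2.34 (SE 0.62) at the dimmer probe set. Those between HEB-KO and WT were 0.26 (SE 0.57) and 0.88 (SE 0.72), with 95% intervals of -1.03 to 1.55 and -0.77 to 2.53 that hold both directions, and without HEB-KO array 1 the value at the brighter probe set was -0.34. E2A-KO differed from HEB-KO by -2.22 (SE 0.49) and -3.22 (SE 0.62).

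Gbp2, a lipid-anchored guanylate-binding protein that is recruited to the vacuole of Toxoplasma, was the chromosome 3 gene with a large difference. At probe set 1435906_x_at it read 4.61, 4.83, 3.40 and 3.78 on E2A-KO, 5.84 and 4.98 on HEB-KO, and 6.45 and 6.51 on WT arrays. At 1418240_at it read 3.58, 4.43, 2.94 and 3.35 on E2A-KO, 4.61 and 4.06 on HEB-KO, and 5.73 and 5.45 on WT arrays. HEB-KO cells stood between E2A-KO and WT cells at both, apart from WT at both and overlapping E2A-KO at the second. The differences from WT were -2.32 (SE 0.42) and -2.02 (SE 0.38) in E2A-KO, and -1.07 (SE 0.49) and -1.26 (SE 0.44) in HEB-KO cells. The ending _x_at marks a probe set whose probes may also bind other transcripts, so its signal may hold that of other GBP genes. With the hybridization control signal as a covariate the E2A-KO difference of Gbp2 was -1.46 at the brighter probe set, and that between E2A-KO and HEB-KO was -0.47 against -1.25 without it.

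Gbp3 and Gbp7, of the same chromosome 3 group as Gbp2, differed on average by less than 2-fold between any genotypes. Gbp3 read 7.57, 7.74, 6.62 and 7.995 on E2A-KO, 8.25 and 8.18 on HEB-KO, and 7.80 and 7.86 on WT arrays. E2A-KO array 3 was the low one, and E2A-KO overlapped WT. Gbp3 differed by -0.35 (SE 0.35, 95% interval -1.15 to 0.45) in E2A-KO and by 0.38 (SE 0.41, -0.54 to 1.30) in HEB-KO against WT cells. Gbp7, which in mice takes part in the assembly of the phagocyte NADPH oxidase, read 8.20, 8.25, 8.25 and 8.13 on E2A-KO, 8.05 and 8.28 on HEB-KO, and 8.40 and 8.32 on WT arrays at its brighter probe set. The E2A-KO arrays lay below both WT arrays, with a difference of -0.15 (SE 0.19, 95% interval -0.58 to 0.28). Its dimmer probe set read 7.61, 7.96, 7.82 and 7.47 on E2A-KO, 8.27 and 8.01 on HEB-KO, and 8.08 and 8.15 on WT arrays, a difference of -0.40 (SE 0.18) for E2A-KO and of 0.02 (SE 0.21) for HEB-KO against WT.

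**Figure D2:**
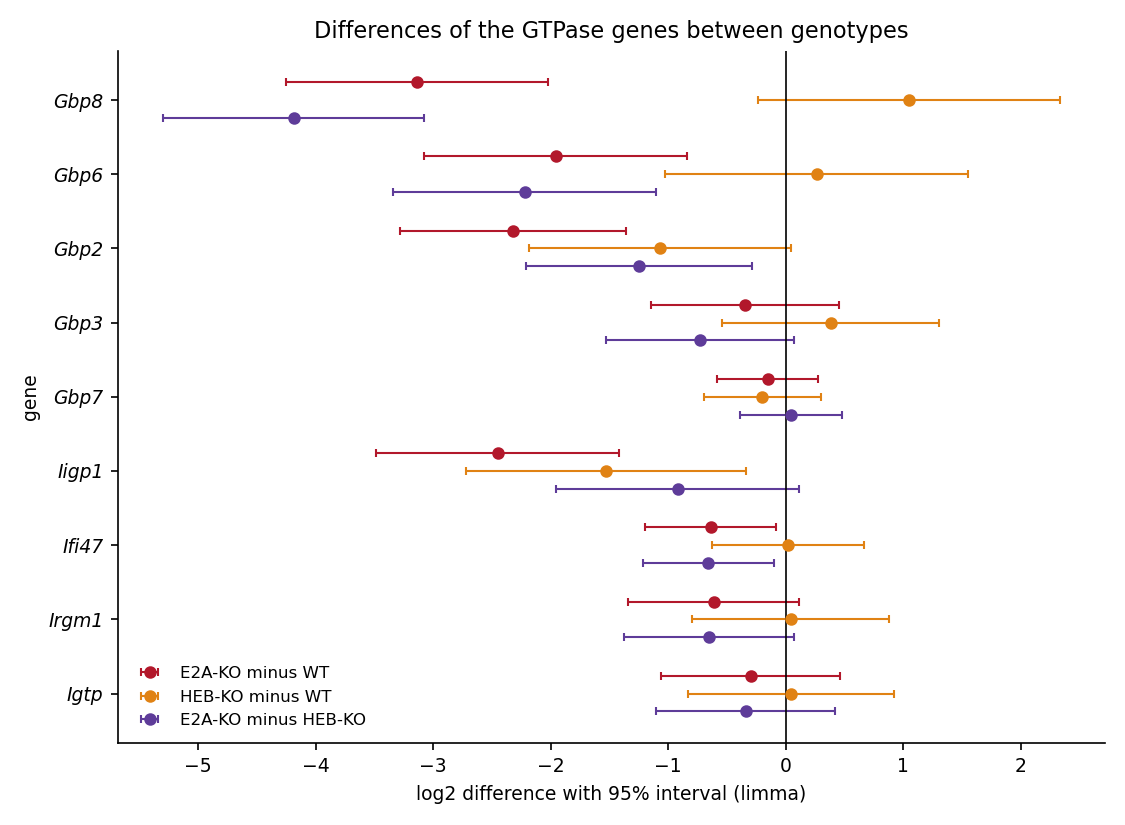
Log2 differences (x axis) of the 9 genes (y axis) for E2A-KO minus WT, HEB-KO minus WT and E2A-KO minus HEB-KO, with 95% intervals from the fit to all genes. The E2A-KO intervals of Gbp8, Gbp6, Gbp2 and Iigp1 end at -0.84 or lower, while those of Gbp3, Gbp7, Irgm1 and Igtp hold 0.

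Among the IRGs the effector Iigp1 (also called Irga6), on chromosome 18, had the largest difference between E2A-KO and WT cells. At 1419043_a_at it read 5.70, 3.92, 4.82 and 4.50 on E2A-KO, 5.89 and 5.42 on HEB-KO, and 7.57 and 6.79 on WT arrays. Both knockouts lay below WT without overlap, and overlapped each other. The difference from WT was -2.45 (SE 0.46) in E2A-KO and -1.53 (SE 0.53, 95% interval -2.72 to -0.34) in HEB-KO cells, and that between E2A-KO and HEB-KO was -0.92 (SE 0.46, -1.95 to 0.11). The other probe set, 1419042_at, read 3.49, 3.21, 3.17 and 4.16 on E2A-KO, 4.14 and 4.85 on HEB-KO, and 5.27 and 4.72 on WT arrays. There the differences were -1.49 (SE 0.34) in E2A-KO and -0.50 (SE 0.39) in HEB-KO cells, and HEB-KO overlapped WT.

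Ifi47 (Irgd), a chromosome 11 effector, read 10.28, 9.88, 10.54 and 10.07 on E2A-KO, 10.99 and 10.72 on HEB-KO, and 10.66 and 11.004 on WT arrays. The E2A-KO arrays lay below all others by a small margin, and the difference from WT was -0.64 (SE 0.25, 95% interval -1.20 to -0.08). HEB-KO differed from WT by 0.02 (SE 0.29, -0.62 to 0.67).

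Of the regulators, Irgm1, which in mice also protects stem cells and lymphocytes during interferon exposure, read 6.46, 6.88, 6.92 and 6.01 on E2A-KO, 7.12 and 7.33 on HEB-KO, and 6.82 and 7.54 on WT arrays. E2A-KO lay below HEB-KO and overlapped WT, with a difference from WT of -0.61 (SE 0.32, 95% interval -1.34 to 0.11). Igtp read 6.75, 6.65, 7.83 and 7.005 on E2A-KO, 7.49 and 7.31 on HEB-KO, and 7.16 and 7.55 on WT arrays. All genotypes of Igtp overlapped, since E2A-KO array 3 was the highest of the 8, and its difference from WT was -0.30 (SE 0.34, -1.06 to 0.46) in E2A-KO cells. In HEB-KO against WT cells Irgm1 differed by 0.04 (SE 0.37) and Igtp by 0.04 (SE 0.39), and the signs of these values, and of that of Ifi47, turned when the arrays were scaled by cyclic loess and when single arrays were left out.

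**Figure D3:**
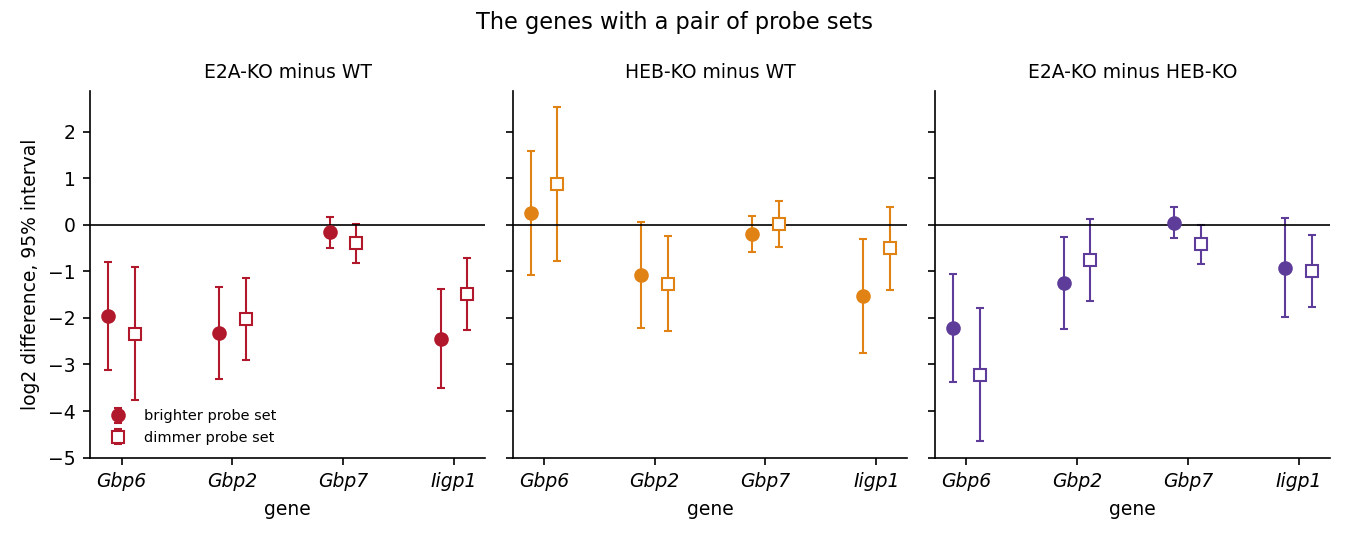
Log2 differences with 95% intervals (y axis) at both probe sets of Gbp6, Gbp2, Gbp7 and Iigp1 (x axis), from the fit to all probe sets, in E2A-KO minus WT, HEB-KO minus WT and E2A-KO minus HEB-KO. Filled circles are the brighter and open squares the dimmer probe sets; both probe sets of Gbp6, Gbp2 and Iigp1 lie between -2.45 and -1.49 for E2A-KO minus WT, and those of Gbp6 lie at 0.26 and 0.88 for HEB-KO minus WT.

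E2A-KO and HEB-KO cells were also set against each other. The 3' minus 5' log2 signal of the actin control, a sign of RNA quality, was 4.41, 4.78, 4.12 and 3.86 on E2A-KO, 3.37 and 3.58 on HEB-KO, and 4.45 and 3.84 on WT arrays. That of the Gapdh control was 5.54, 5.97, 5.72 and 5.38 on E2A-KO, 4.67 and 5.14 on HEB-KO, and 6.03 and 4.998 on WT arrays. Both were higher on every E2A-KO than on every HEB-KO array and overlapped between E2A-KO and WT, and their part in the differences was not tested. Here 8 of the 9 genes were lower in E2A-KO cells (62.9% of all genes), with a median log2 difference of -0.73 against -0.16 over all genes, 6 of the 9 had arrays apart (21.6% of all genes), and 3 were at least 2-fold lower (6.23% of all genes). Gbp8 was the 1 of the 9 among the 0.117% of genes called, and it was not called without either HEB-KO array or E2A-KO array 1 or 2. The exception to the direction was Gbp7, at 0.05 (SE 0.19), at its brighter probe set only. Its dimmer probe set differed by -0.42 (SE 0.18), with arrays apart, and the mean of both by -0.19. The value at the brighter probe set turned to -0.05 when arrays were centred on their medians and was -0.07 to 0.16 when single arrays were left out. Gbp2 differed by -1.25 (SE 0.42), Gbp3 by -0.73 (SE 0.35), Ifi47 by -0.66 (SE 0.25), Irgm1 by -0.65 (SE 0.32) and Igtp by -0.34 (SE 0.34).

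The order of the genotypes thus differed between genes. For Gbp8 and Gbp6 it ran E2A-KO, WT, HEB-KO, with the HEB-KO arrays above both WT arrays for Gbp8 and overlapping them for Gbp6. For Gbp2 and Iigp1 it ran E2A-KO, HEB-KO, WT, with E2A-KO and HEB-KO overlapping at 1 probe set of Gbp2 and at both of Iigp1. Genes of a group could differ, as Gbp2 and Gbp7 did within 1 cluster on chromosome 3. The nearest tested genes outside the families, chosen by position alone, did not pass the test in E2A-KO against WT cells. Counted in protein-coding genes, they lay from 1 (Kyat3 from Gbp2) to 13 (Btnl9 from Irgm1) places away. Btnl9 was 5 places from Ifi47, and Isoc1 was 7 from Iigp1, so not all were close neighbours. Beside the chromosome 3 genes, Pdlim5 differed by 0.41 (SE 0.42, limma adjusted p = 0.683) and Kyat3 by 0.49 (SE 0.29, limma adjusted p = 0.488). Beside the chromosome 5 genes, Zfp33b differed by -0.28 (SE 0.30, limma adjusted p = 0.709) and Lrrc8c by -0.29 (SE 0.36, limma adjusted p = 0.739). Beside the chromosome 11 genes, Btnl9 differed by -1.51 (SE 0.48, limma adjusted p = 0.232), Zfp692 by -0.76 (SE 0.28, limma adjusted p = 0.290), Trim41 by -0.37 (SE 0.31) and Mrpl22 by -0.35 (SE 0.32). Beside Iigp1, Isoc1 differed by -0.64 (SE 0.25, limma adjusted p = 0.331) and Smim3 by 0.07 (SE 0.35). The values of Btnl9, Zfp692 and Isoc1 were as large as or larger than those of Ifi47, Irgm1 and Igtp.

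All 9 genes passed the filter on dim genes, which asked for a level above the array's median on 2 arrays. For Gbp8 these were both HEB-KO arrays, both WT arrays and E2A-KO array 4. The second probe sets of Gbp2, Gbp6 and Iigp1 likewise lay above the median on every HEB-KO and WT array and on 1 E2A-KO array. Those second probe sets were not the ones tested, and readings near the floor understate a fold. One further probe set named Gbp8 together with another gene and was not used. GBP genes are close copies, so cross-binding of probes between them cannot be told apart from their own signal here.

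Of 23 further GTPases of the Gbp, Irg, Mx and very large GTPase families listed, 7 had a probe set of their own and 5 were tested. None was called in any comparison, against 0.443% of all genes for E2A-KO against WT and 0.117% for E2A-KO against HEB-KO. At such shares the absence of calls in this list or those below is not read as a result. Their median was -0.41 in E2A-KO and -0.20 in HEB-KO against WT cells. Irgm2, a regulator related to Irgm1, read 4.93, 4.35, 4.11 and 5.68 on E2A-KO, 6.20 and 5.75 on HEB-KO, and 6.46 and 6.53 on WT arrays. Its E2A-KO arrays lay below all others, and its difference from WT was -1.73 (SE 0.41, limma adjusted p = 0.116) in E2A-KO and -0.52 (SE 0.47, limma adjusted p = 1) in HEB-KO cells. Irgq, an IRG-related protein that interferon does not induce, differed by -1.01 (SE 0.33, limma adjusted p = 0.249) in E2A-KO and by 0.07 (SE 0.38) in HEB-KO cells. The antiviral GTPases Mx1 and Mx2 differed by -0.41 (SE 0.46) and 0.13 (SE 0.21), and Irgc1 by 0.36 (SE 0.39), in E2A-KO against WT cells. Gbp2b and Gm4951 did not pass the filter and read at most 3.80 and 3.996 on any array.

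Interferon receptors and signalling genes gave no call among 18 tested of 22 listed (0.443% of all genes in E2A-KO against WT cells). Their median difference was -0.28 in E2A-KO and 0.15 in HEB-KO against WT cells. Irf1, the factor through which interferon-gamma induces GBP genes, read 8.36, 8.03, 8.29 and 8.39 on E2A-KO, 8.98 and 9.10 on HEB-KO, and 9.02 and 9.02 on WT arrays. Its E2A-KO arrays stood below all others, with a difference from WT of -0.75 (SE 0.20, limma adjusted p = 0.163), and HEB-KO differed from WT by 0.03 (SE 0.23). Nlrc5, the activator of MHC class I genes, differed by -0.78 (SE 0.34, limma adjusted p = 0.368) in E2A-KO and by -0.56 (SE 0.39) in HEB-KO cells. The receptor chain Ifngr1 differed by -0.31 and Ifngr2 by 0.53 in E2A-KO against WT cells.

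The type I interferon response list held 27 tested genes, 25 of them negative in E2A-KO against WT cells (54.9% of all genes). Their median was -0.74, against -0.05 over all genes, and the list was chosen with earlier results known. Usp18, which damps type I interferon signalling, fell by 2.44 (SE 0.35, limma adjusted p = 0.0276) and Rtp4 fell by 1.74 (SE 0.23, limma adjusted p = 0.0224). Thus 2 of 27 were called lower and none was called higher, against 0.393% of all genes called lower. Leaving out either WT array or E2A-KO array 2 ended both calls, and leaving out either HEB-KO array or E2A-KO array 4 ended that of Usp18 (limma adjusted p from 0.0126 to 0.289 for Usp18 and from 0.0172 to 0.235 for Rtp4). In HEB-KO against WT cells 18 of the 27 were negative (38.2% of all genes), with a median of -0.13 against 0.09 over all genes and no call. Ifit1 there differed by -1.88 (SE 0.49), Usp18 by -1.38 (SE 0.40) and Rtp4 by -1.07 (SE 0.27), each with a limma adjusted p of 1.

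Genes of antigen processing and chemokines that interferon-gamma induces gave no call among 11 tested of 16 listed (0.443% of all genes in E2A-KO against WT). Their median was -0.42 in E2A-KO and 0.24 in HEB-KO against WT cells. H2-K1, an MHC class I heavy chain whose probe set can bind its close copies, differed by -0.92 (SE 0.25, limma adjusted p = 0.173) and its partner B2m by -0.77 (SE 0.23, limma adjusted p = 0.198) in E2A-KO cells. In HEB-KO cells the immunoproteasome subunit Psmb10 differed by 0.66 (SE 0.36) and the peptide transporter Tap2 by 0.47 (SE 0.33).

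Autophagy proteins of the ATG8 conjugation system guide IRGs and GBPs to vacuoles. Of 12 autophagy-related genes tested, which also held Sqstm1 and Traf6, none was called (0.443% of all genes in E2A-KO against WT). Their median was -0.34 in E2A-KO and 0.39 in HEB-KO against WT cells. Gabarapl1 differed by -1.03 (SE 0.33, limma adjusted p = 0.232) and Atg12 by -0.73 (SE 0.30, limma adjusted p = 0.339) in E2A-KO cells. Inflammasome genes, which act downstream of GBPs when bacteria are lysed, gave no call among 6 tested of 8, against the same share. Their median was -0.47 in E2A-KO and -0.06 in HEB-KO against WT cells. Il18, an interleukin that inflammasomes process, differed by -2.01 (SE 0.39, limma adjusted p = 0.0811) in E2A-KO and by -1.30 (SE 0.46, limma adjusted p = 1) in HEB-KO cells. Casp4 differed by -0.98 (SE 0.32, limma adjusted p = 0.252) in E2A-KO cells.

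**Figure D4:**
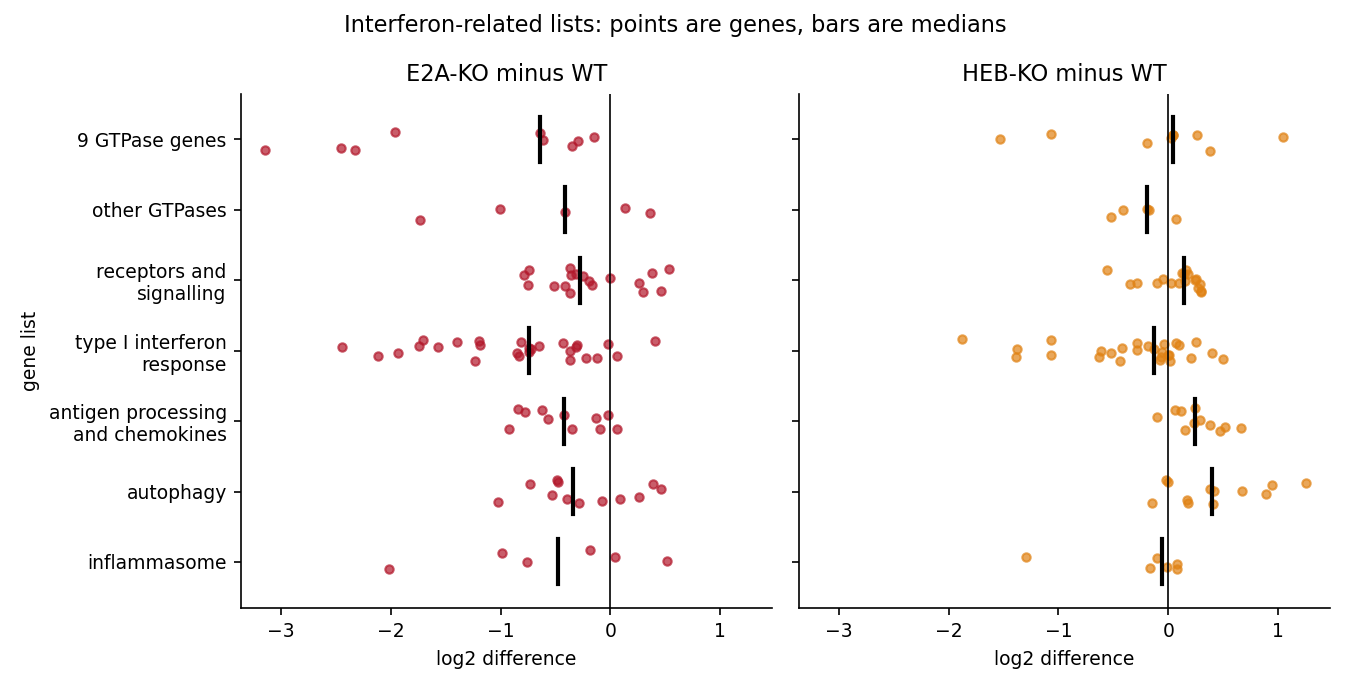
Log2 differences (x axis) of the tested genes of each list (y axis) for E2A-KO minus WT and HEB-KO minus WT. Points are genes and bars are medians; the median of the 9 GTPase genes is -0.64 without E2A and 0.04 without HEB, and that of the type I interferon response is -0.74 and -0.13.

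Genes with the most similar pattern over the 8 arrays were sought among 3175 other tested genes with an SD of at least 0.5. Nearest to Gbp2 were Cd86, a costimulatory ligand (Pearson r = 0.984), Usp18 (0.971), Snn (0.960), Taf2 (0.956) and Dgka (0.951). Nearest to Gbp8 were Sesn3 (Pearson r = 0.988), Etv5 (0.986), Cox6a2 (0.981), Abi3 (0.978) and Ephb6 (0.974). Cox6a2 is also among the plasmacytoid dendritic cell markers read below. The best of so many candidates over 8 arrays in 3 genotypes are bound to be high, and the values share genotype and array, so they only describe a resemblance.

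Markers of other cell types were read beside the GTPases, since macrophages and other mature cells can hold much of these proteins. Of 6 macrophage and monocyte markers measured, Adgre1 and Itgam lay below the median on every array. The summed intensity of the 6 was 340 to 464 on E2A-KO, 665 and 1064 on HEB-KO, and 673 and 1018 on WT arrays. Within it Csf1r differed by -1.36 and Lyz2 by -1.49 in E2A-KO against WT cells, and Cd68 by 1.33. The T cell gene Cd3g and the NK cell genes Ncr1, Gzma and Eomes lay below the median on every array. Their list sums were 131 to 148 on E2A-KO, 184 and 239 on HEB-KO, and 172 and 220 on WT arrays for T cells. For NK cells they were 348 to 699 on E2A-KO, 719 and 843 on HEB-KO, and 488 and 885 on WT arrays.

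Neutrophil markers summed to 2292 to 4565 on E2A-KO, 3902 and 5595 on HEB-KO, and 1923 and 2712 on WT arrays. Those of plasmacytoid dendritic cells summed to 2651 to 6263 on E2A-KO, 4966 and 7107 on HEB-KO, and 5394 and 6476 on WT arrays, and those of B-lineage cells to 242 to 355 on E2A-KO, 301 and 617 on HEB-KO, and 213 and 988 on WT arrays. Erythroid markers summed to 78.6 to 753 on E2A-KO, 66.6 and 87.7 on HEB-KO, and 67.1 and 105 on WT arrays. The summed signal of the 6 progenitor markers was also lower, at 7991 to 11006 on E2A-KO, 17231 and 17331 on HEB-KO, and 17753 and 18912 on WT arrays. Of these sums, those of macrophage, T cell and progenitor markers separated E2A-KO from WT arrays in the direction of the GTPases, and their part in the differences was not tested. The T cell sum was carried by Lat, at -1.40, while the other 5 T cell genes lay between -0.11 and 0.27 in E2A-KO against WT cells. Sums that overlapped could still hold single genes that differed. Of the plasmacytoid dendritic cell markers, Ccr9 differed by -5.28 and Cox6a2 by -1.80. Siglech differed by 0.79, Bst2 by -0.37, Tcf4 by -0.41 and Irf8 by -3.1e-04. Of the B-lineage markers, Ebf1 differed by -3.06 (limma adjusted p = 0.131) and Vpreb1 by -2.00 (limma adjusted p = 0.446). The others lay between -0.21 and 0.31. Ebf1 read 4.36 and 6.90 on WT arrays 1 and 2. Vpreb1 read 3.78 and 8.42 there and 3.82 to 4.64 on E2A-KO arrays, so its difference rested on WT array 2. The part of these genes was not tested either.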

How the data were processed

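Gene expression was measured with Affymetrix arrays on pooled sorted E2A-KO (n = 4 arrays), HEB-KO (n = 2) and WT (n = 2) cells, and arrays of a genotype may share sorts. Per the labels' protocols RNA was prepared with RNeasy Micro and labelled after more than 1 round of amplification. The deposited intensity values are from RMA, per the submitters' processing notes, with version and chip definition not given in the sources used here. They run on a linear scale, as their range shows, so they were taken to log2 with no further normalization.

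Of 45101 probe sets 34945 named a single gene in the platform annotation, 932 several, 9160 none, and 64 were controls. For 34741 of them the symbol was updated by gene ID from a RefSeq table of GRCm38.p6. Each gene was represented by its brightest probe set and tested if 2 or more arrays had it above their median (11957 of 18193 genes). Limma 3.58.1 in R 4.3.3 fitted 1 mean per genotype to all arrays (5 residual degrees of freedom) and tested 3 contrasts two-sided, with Benjamini-Hochberg adjustment over all genes and a threshold of 0.05. Standard errors of a second probe set come from a fit to all probe sets. No arrays were identical and none was left out. The fit was tested on simulated data.

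The 9 genes and the 6 lists were chosen with earlier results of these data known. All 9 genes are named, as are every measured further GTPase, the called genes of each list or, with none, those with the smallest p, not all of which are printed, and the genes most like Gbp2 and Gbp8. Ifngr1, Ifngr2, the marker genes and flanking genes stand outside that rule, and the first were named after their values were seen. Same-numbered arrays did not deviate together over all pairs (correlations from -0.277 to 0.148), so the numbers were not used as pairs. Between HEB-KO and WT both correlations were -0.277, a single value, since 2 arrays of a genotype deviate as mirror images. Arrays of unlike number thus deviated together there. WT array 2 and HEB-KO array 1 also shared a lower control signal and a higher Ly6d signal, and the cause was not tested. Alternatives changed the filter, scaling, probe set choice, variance model, arrays and threshold, added a replicate block or the control signal, or left out each array.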

Additional observations from a re-analysis of the deposited data

Results flagged for a closer look

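Among 43 sets of 4 E2A-KO values examined, for the probe sets of the 9 genes and the other genes named by the rule, 2 held an array far from the other 3, about what chance gives at 1 in 20. Mx2 read 4.694 on E2A-KO array 2, against 4.379 to 4.411 on the other 3. Socs1, a feedback inhibitor of interferon signalling, read 4.252 on E2A-KO array 3, against 3.756 to 3.809 on the other 3. None of the 13 probe sets of the GTPase genes held such an array.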

How the results depend on the processing

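All 9 genes kept a negative difference for E2A-KO against WT in the 22 alternatives that gave one, and the count at least 2-fold lower stayed at 4 whichever array was left out. The calls were less steady. For E2A-KO against WT, 53 genes and 1 of the 9 were called. These became 34 and 0 over all probe sets, 91 and 3 with trend and robust eBayes, 120 and 3 with array weights, 26 and 0 with only the genotypes compared, and 1 and 0 with the hybridization control covariate. At adjusted p under 0.01 they were 3 and 0, at 0.10 they were 153 and 3, and 0 and 0 when WT 2 and HEB-KO 1 were both left out, an alternative chosen after seeing the data. No filter gave 0 of the 9, and the mean of all probe sets gave 2. The replicate block gave 12 genes and 0 of the 9 for E2A-KO against WT, 3 genes for E2A-KO against HEB-KO and none for HEB-KO against WT. Leaving out single arrays gave 2 to 104 genes and 0 to 1 of the 9. Gbp8 lost its call without either WT array, either HEB-KO array, or E2A-KO array 1 or 2, and Iigp1 was called in its place without E2A-KO array 1. The members' median was -0.97 to -0.46 when single arrays were left out, lowest without WT array 1.

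For E2A-KO against HEB-KO, 14 genes were called. They became 1 over all probe sets, 42 with trend and robust eBayes, 91 with array weights, 6 with only the genotypes compared, 3 with the first 2 numbered arrays, 1 with the control covariate, 1 at 0.01, 86 at 0.10 and 0 without WT 2 and HEB-KO 1. Leaving out single arrays gave 1 to 21, and Gbp8 lost its call without either HEB-KO array or E2A-KO array 1 or 2. Under cyclic loess the median of all genes was -0.03 (-0.16 without it), that of the 9 was -0.47 (-0.73) and the share of calls that were lower 70.0% (85.7%). For HEB-KO against WT no alternative called a gene, also not with the crossed pairing of arrays, chosen after seeing the data (0 calls), and the members' median lay between -0.15 and 0.24. A lone remaining array of a genotype is taken to vary as the other genotypes do. Apart from fewer arrays or more tests where the alternative itself brings them, the cause of these changes was not tested.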
